A study of Mus musculus with 28 samples.

Results

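The mouse collagen genes were examined in a motor neuron-like cell line and in primary cortical cultures with and without human TDP-43. They were taken as the protein-coding genes whose symbol begins with Col, followed by 1 or 2 digits, the letter a and a further digit. This rule found 45 of the 21501 protein-coding genes, among 45513 genes counted in all. Of the 45, 44 encode collagen chains. The other, Col4a3bp, shares only the name, encodes a ceramide transporter and is described apart.

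Ribosome footprints (the mRNA fragments that ribosomes shield from nuclease) and poly(A)-selected, fragmented total mRNA were sequenced from the same cultures, which gave 28 libraries. MN1 cells, a clonal hybrid of spinal motor neurons and neuroblastoma cells from the mouse, received by transient transfection a plasmid for GFP, human TDP-43 (hTDP-43) or the disease mutant hTDP-43-A315T, in 2 cultures per plasmid, and all were given the elongation inhibitor cycloheximide for 3 min before lysis. Cortical neurons were prepared from C57BL/6J embryos on day 16 and treated with cytosine arabinoside against dividing cells. They were harvested after 14 days in vitro with no cycloheximide given before lysis. Per the paper's methods, the lysis buffer and the sucrose gradients contained cycloheximide. The neurons were wild type (WT, 2 cultures) or hemizygous for a transgene under the prion promoter for either human protein (3 cultures per transgene). Cell type, cycloheximide before lysis and the dates of the cultures coincide, so their parts in any difference between MN1 cells and neurons cannot be told apart. The labels do not say whether neuron cultures of a group came from separate litters, and p-values measure the spread between the labelled replicates.

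Collagens are secreted or membrane-bound proteins whose chains wind in threes into a triple helix. Fibrillar collagens (such as types I, III and V) build the rope-like fibres of connective tissue, type IV collagen forms the net of basement membranes, type VI collagen forms beaded filaments, and the multiplexins (types XV and XVIII) lie in basement membranes and carry heparan or chondroitin sulphate chains. Several further collagens span the plasma membrane. The brain holds little fibrillar collagen outside its vessels and meninges, and its neurons and glia are known to make type IV and type VI collagen and some transmembrane and fibril-associated collagens.

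Libraries held between 166064 and 6969578 reads assigned to genes, so that 3 reads stand for 18.1 CPM (counts scaled to library size) in the shallowest and 0.430 CPM in the deepest. The label of the cortical cultures was checked with 8 neuron markers, all 8 of which were higher in neurons than in MN1 cells in both library types, as were all 6 astrocyte markers in total mRNA. All 4 markers of dividing cells were higher in MN1 cells. Of 5 motor neuron markers only Slc18a3 and Isl1 were called in total mRNA, higher in MN1 cells by 3.46 and 3.17 on the log2 scale. Tardbp, on whose gene reads of the human transgene may be counted in part, was 0.72 ± 0.15 (log2 ± SE) higher in MN1 cells with hTDP-43 and 0.71 ± 0.13 higher with hTDP-43-A315T than with GFP. In transgenic neurons it was 0.29 ± 0.34 and 0.26 ± 0.29 lower than in WT, and none of these values passed the test in edgeR (lowest adjusted p = 0.85). The total mRNA libraries of WT replicate 3 and hTDP-43 replicate 3 neurons stood apart: Lars2 took 18.8% and 14.2% of their reads, and they held 1110 and 105 reads of the matrix protein Nid1. Several values of Col17a1, Col18a1 and Col4a2 that rest on these libraries are given with and without them, or by culture.

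Collagen mRNA was a small part of the output of both cell types. The 44 chains together took 0.0261% to 0.0326% of the total mRNA reads (median 0.0291%) and 0.0263% to 0.0349% of the footprints (median 0.0322%) of the 6 MN1 cultures. In the 8 neuron cultures they took 0.0249% to 0.0545% of total mRNA (median 0.0277%) and 0.0208% to 0.0296% of footprints (median 0.0243%). The WT culture numbered 3 had the highest neuron value, 0.0545%, and replicate 3 of hTDP-43 the next, 0.0430%, which were 0.0283% and 0.0253% once Col17a1 was set aside. The ranges of the cell types overlapped in both library types. In footprints the overlap came from hTDP-43 replicate 1 of the MN1 cells (0.0263%). The other 5 MN1 libraries lay above every neuron library, but barely so for hTDP-43-A315T replicate 2 (0.0297%) against WT replicate 2 (0.0296%). With Lars2 left out of the total, the order of these 2 libraries was reversed (0.02985% against 0.02991%). As a share of protein-coding reads the same MN1 library (0.03176%) lay below hTDP-43 replicate 3 of the neurons (0.03268%). Shares of summed chains were not tested.

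The chains that made up these sums differed between the cell types. In every MN1 library a single gene, Col18a1, gave 65.5% to 74.7% of the collagen reads. In neurons the leading chain, which was Col4a2, Col26a1 or Col25a1 except in the libraries led by Col17a1, gave 13.2% to 22.5%. MN1 footprint libraries held reads of 13 to 28 of the 44 chains and neuron footprint libraries of 13 to 39, while in total mRNA the numbers were 28 to 37 and 33 to 44. Depth differs between these libraries, and the part of depth in the numbers of chains was not tested.

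**Figure D1:**
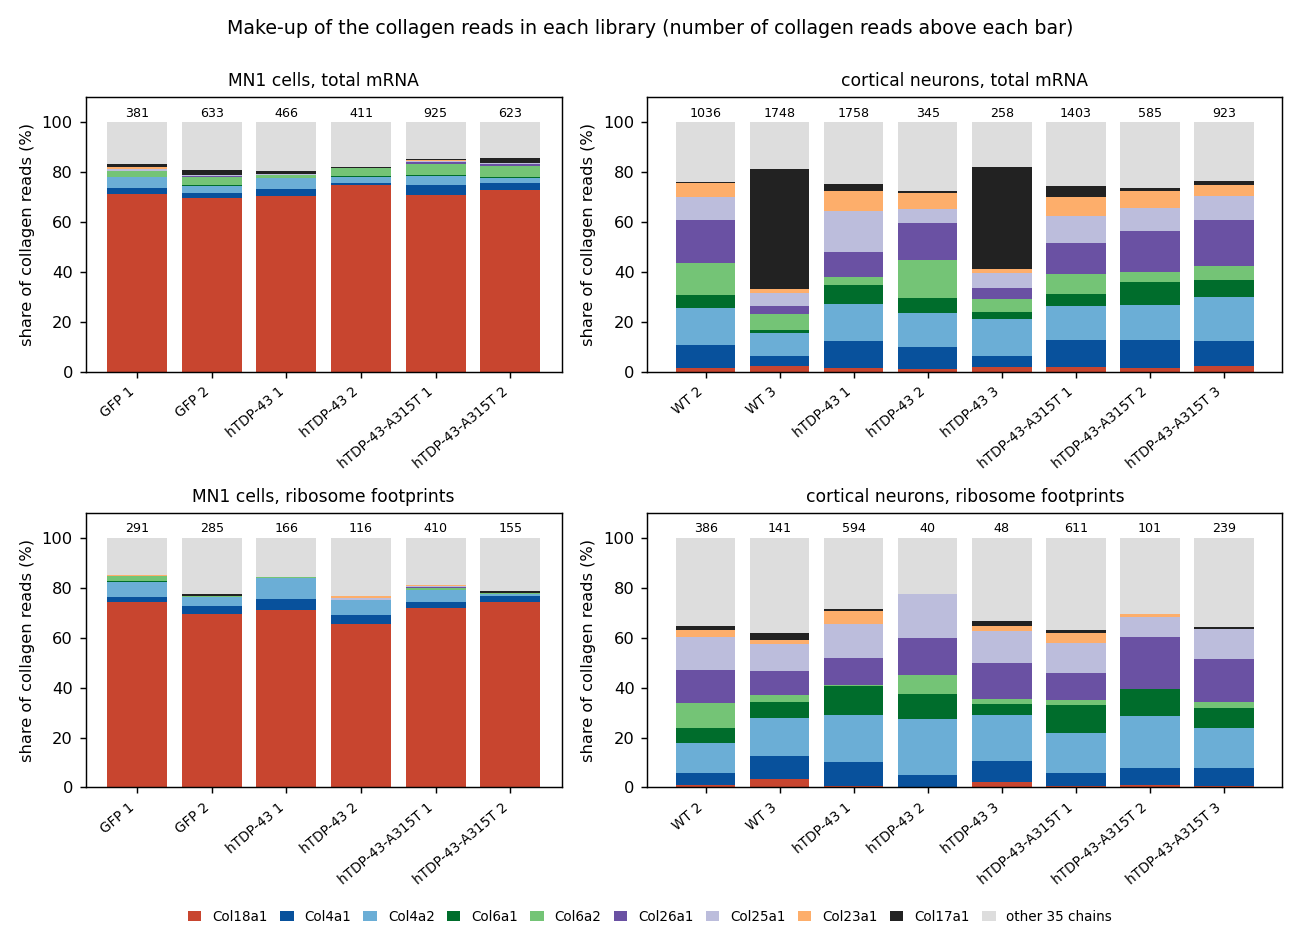
Share of the collagen reads (percent, vertical axis) that went to each of 9 chains and to the other 35 in each library (horizontal axis: genotype and replicate), with the number of collagen reads above each bar. Col18a1 fills 65.5% to 74.7% of every MN1 bar, whereas the neuron bars are split among Col4a1, Col4a2, Col6a1, Col26a1, Col25a1 and others, with 48.1% and 41.1% Col17a1 in total mRNA of WT 3 and hTDP-43 3.

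Per length, the order of the chains in total mRNA of MN1 cells was led by Col18a1 at 25.1 ± 3.51 RPKM (reads scaled to exon length and library size, mean of the 3 groups, SD over 6 libraries). It was followed by Col4a2 at 1.21 ± 0.285, Col13a1 at 1.08 ± 0.323, Col6a2 at 0.974 ± 0.515 and Col4a1 at 0.923 ± 0.427 RPKM, and the differences between these neighbours were smaller than their spread. Col9a3, Col11a2, Col16a1, Col2a1 and Col17a1 came next, between 0.4574 and 0.7998 RPKM. In neurons (SD over 8 libraries), the order was Col4a2 at 8.10 ± 2.77, Col26a1 at 4.82 ± 1.52, Col4a1 at 4.31 ± 0.461, Col6a1 at 3.94 ± 1.11, Col6a2 at 3.69 ± 2.18, Col23a1 at 2.93 ± 0.951 and Col25a1 at 2.47 ± 0.709 RPKM, before Col19a1 and Col5a1. Col26a1, Col4a1, Col6a1 and Col6a2 differed from each other by less than their spread. Col17a1 had the highest neuron mean, 16.5 RPKM, with an SD of 25.7 that came from WT replicate 3 and hTDP-43 replicate 3.

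Col18a1 encodes the chain of collagen XVIII, a basement membrane collagen with sugar side chains whose far end can be cleaved to release endostatin. It lies on chromosome 10 at chr10:77052178-77166548, minus strand (GRCm38). In MN1 total mRNA the GFP cultures had 149 CPM and 161 CPM, the hTDP-43 cultures 156 and 187 CPM and the mutant cultures 198 and 208 CPM, on the TMM scale (library sizes scaled by edgeR's trimmed mean of M-values). Neuron total mRNA held 4.01 to 19.4 CPM (median 5.64), and the highest value, in WT replicate 3, was far below the lowest MN1 library. The libraries of the cell types did not overlap. In footprints the MN1 range was 167 to 252 CPM (median 207.4), whereas the 8 neuron libraries held 0 to 9.46 CPM, from at most 5 reads each. Col18a1 was thus 4.65 ± 0.25 (log2 ± SE) higher in MN1 cells in total mRNA (edgeR, adjusted p = 2.6e-10) and 6.36 ± 0.20 higher in footprints (edgeR, adjusted p = 3.9e-17).

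The sequence before the annotated start of Col18a1 is shown because this gene sets the collagen make-up of MN1 cells. It is the RefSeq window (GRCm38.p6) without the part that lies in an exon, chr10:77166549-77166780 on the minus strand, printed in the direction of transcription. Capitals mark GC boxes (GGGCGG) and CCAAT boxes on either strand.
Col18a1 upstream: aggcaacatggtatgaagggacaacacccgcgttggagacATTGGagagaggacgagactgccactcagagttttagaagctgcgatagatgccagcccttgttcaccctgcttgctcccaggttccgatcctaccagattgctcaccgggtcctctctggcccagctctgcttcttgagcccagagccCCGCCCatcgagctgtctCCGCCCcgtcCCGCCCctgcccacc
These 232 bases are 60.8% G or C, hold 11 CpG and contain 3 GC boxes and 1 CCAAT box, all 4 matches on the opposite strand, with no TATA box (TATAAA). RefSeq windows, which run from 250 bases before to 50 bases after a start, were found for 35 of the 44 chains (38 windows). Only the 250 bases before the start were searched. A GC box was found in 57.9% of the collagen windows against 32.7% of all 32851 windows. The shares were 34.2% against 33.8% for a CCAAT box and 13.2% against 12.4% for a TATA box. A match describes the letters and not a bound factor.

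Among the other chains of MN1 cells, 2 were higher than in neurons in total mRNA. Col13a1, a transmembrane collagen found at the neuromuscular synapse, had 7 to 16 reads in each MN1 library (2.73 to 6.70 CPM) and 0 to 4 in the neuron libraries (0 to 2.17 CPM). The groups did not overlap, and the difference was 3.49 ± 0.54 on the log2 scale (edgeR, adjusted p = 2.8e-05). Col9a3, a chain of the fibril-associated collagen IX of cartilage, was 1.404 ± 0.47 higher (edgeR, adjusted p = 0.012), with MN1 libraries between 1.65 and 4.38 CPM and neuron libraries between 0 and 2.36 CPM, which overlap. Without GFP replicate 2 it missed the threshold at 1.11 (edgeR, adjusted p = 0.090). Its exons share 234 bases with the antisense gene Tcfl5, and the counts did not use strand. Neither gene passed the filter on low counts in footprints.

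Col11a2, a chain of the fibrillar collagen XI, stood between the cell types. In total mRNA it was 0.50 ± 0.40 higher in MN1 cells, which missed the threshold (edgeR, adjusted p = 0.26), with 2.75 to 6.09 CPM in MN1 cells and 1.12 to 5.54 CPM in neurons. Its footprints ranged from 4.24 to 30.1 CPM in MN1 cells and from 0 to 9.45 CPM in neurons, and were 1.58 ± 0.47 higher in MN1 cells (edgeR, adjusted p = 0.0043). The call was lost without GFP replicate 2 (1.15, adjusted p = 0.051) and without hTDP-43 replicate 2 (0.96, adjusted p = 0.12).

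Col4a1 and Col4a2 encode the chains of the common type IV network of basement membranes and were read in every library of both cell types. Neuron total mRNA held Col4a1 at 24.8 to 32.8 CPM (median 29.6) and Col4a2 at 36.8 to 87.8 CPM (median 45.5). In MN1 cells the same genes ranged from 2.44 to 11.2 CPM and from 6.09 to 10.6 CPM. No MN1 library reached the neuron range of either gene. In MN1 cells, Col4a1 was 2.28 ± 0.20 lower (edgeR, adjusted p = 7.4e-08) and Col4a2 2.68 ± 0.24 lower on the log2 scale (edgeR, adjusted p = 6.4e-08). The gap was narrower in footprints, with Col4a1 1.12 ± 0.27 lower (edgeR, adjusted p = 0.00081) and Col4a2 1.59 ± 0.23 lower (edgeR, adjusted p = 1.4e-06). Footprints of Col4a1 spanned 6.06 to 10.7 CPM in MN1 cells and 10.9 to 27.0 CPM in neurons, and those of Col4a2 1.77 to 19.8 CPM and 36.8 to 60.7 CPM. The other type IV chains, Col4a3 to Col4a6, had at most 7 reads in any library.

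The pair is transcribed in opposite directions from starts only 21 bases apart on chromosome 8, Col4a2 from position 11312805 on the plus strand and Col4a1 from 11312826 on the minus strand, and the shared stretch is shown because both genes were lower in MN1 cells. Here capitals mark the 22 bases that the first exons share, which include a GC box (GGGCGG), at chr8:11312801-11312830, plus strand, GRCm38.
Col4a1 and Col4a2 starts: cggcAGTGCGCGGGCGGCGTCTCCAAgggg
The starts of Col4a3 and Col4a4 are 72 bases apart on chromosome 1 and those of Col4a5 and Col4a6 1309 bases apart on the X chromosome. Since the counts ignored strand, reads in the 22 shared bases cannot be assigned to Col4a1 or Col4a2, but the stretch is 0.323% of the exon length of Col4a1.

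Type VI collagen was also higher in the cortical cultures. Col6a1, Col6a2 and Col6a3 encode the chains that assemble into its filaments. Col6a1 ranged from 9.23 to 23.5 CPM in neuron total mRNA (median 17.6), while MN1 libraries held 0 to 3 reads each. In MN1 cells it was 5.13 ± 0.41 lower (edgeR, adjusted p = 2.5e-08) in total mRNA and 6.37 ± 0.59 lower in footprints (edgeR, adjusted p = 4.4e-09). A fitted change at such counts depends on the offset that the fit adds. From the reads summed by cell type, 427 against 7, the neuron level of Col6a1 was 35.6 times that of MN1 cells, with a lower counting limit of 17.1. Col6a3 was 4.21 ± 0.66 lower in MN1 cells (edgeR, adjusted p = 4.6e-05), with 0 to 3 reads there and 3 to 18 in neurons.

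Col6a2 varied widely between cultures. Neuron total mRNA held it at 37.3 and 51.7 CPM in WT, 8.67, 56.4 and 29.3 CPM in hTDP-43 and 22.7, 11.1 and 14.8 CPM in hTDP-43-A315T cultures. MN1 cells had 2.37 to 13.3 CPM, so the ranges overlapped between hTDP-43 replicate 1 and hTDP-43-A315T replicate 2 of the neurons and the highest MN1 libraries. The difference was 1.89 ± 0.39 in favour of neurons in total mRNA (edgeR, adjusted p = 0.00045) and 1.57 ± 0.71 in footprints (edgeR, adjusted p = 0.046). The footprint call missed the threshold with DESeq2 size factors (adjusted p = 0.053) and without MN1 GFP replicate 2 (0.065) or MN1 hTDP-43 replicate 2 (0.066). Unlike Col6a1, with which it is known to assemble, Col6a2 was present in MN1 cells. Its MN1 reads numbered 5 to 42 per total mRNA library and 0 to 5 per footprint library.

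A further group of collagens was found in the cortical cultures and was nearly missing from MN1 cells. Col25a1 encodes a transmembrane collagen of neurons that is deposited with amyloid plaques. It had 20.6 to 46.4 CPM in neuron total mRNA and 0 to 4 reads per MN1 library, a difference of 5.67 ± 0.36 (edgeR, adjusted p = 1.4e-09). Col26a1, a secreted protein with short collagen stretches, had 23.5 to 56.4 CPM in neurons and 1 to 7 reads per MN1 library, and was 5.39 ± 0.34 lower in MN1 cells (edgeR, adjusted p = 1.4e-09). Neither gene overlapped between the cell types. Over all MN1 footprint libraries together there was 1 read of Col26a1 against 271 in neurons, which puts the neuron level at 159 times that of MN1 cells with a lower counting limit of 28.4.

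Col23a1, another transmembrane collagen, was 4.71 ± 0.38 lower in MN1 cells in total mRNA (edgeR, adjusted p = 2.7e-08), with 9.01 to 23.9 CPM in neurons. Col19a1, a fibril-associated collagen made by subsets of neurons, was 5.41 ± 0.59 lower (edgeR, adjusted p = 1.3e-06). Its neuron values ran from 6.49 to 15.8 CPM apart from 30.9 CPM in WT replicate 3, and MN1 libraries held 0 to 3 reads. Col22a1, a collagen of tissue junctions such as that of muscle and tendon, had 3 to 8 reads in the MN1 and 3 to 67 in the neuron libraries and was 2.33 ± 0.31 lower in MN1 cells (edgeR, adjusted p = 5.6e-06). In footprints, Col25a1, Col26a1 and Col19a1 were lower in MN1 cells by 6.16 ± 0.46, 7.2 ± 0.53 and 5.81 ± 0.80 on the log2 scale, and Col23a1 and Col22a1 did not pass the filter.

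Type I and III collagens had few reads in both systems, while the 11 fibrillar chains together took 6.95% of the collagen reads in MN1 total mRNA and 11.95% in footprints, and 8.515% and 14.35% in neurons. Col1a1 and Col1a2, the chains of type I collagen, had 1 to 22 and 1 to 38 reads in neuron total mRNA and 1 to 5 and 0 to 2 reads in that of MN1 cells, and Col3a1 had 0 to 13 and 0 to 2. The highest of these values were all from WT replicate 3. Col5a1 was the fibrillar chain that passed the test in total mRNA, 4.86 ± 0.52 lower in MN1 cells (edgeR, adjusted p = 5.5e-07), with 2.25 to 16.3 CPM in neurons and 0 to 3 reads per MN1 library. Its exons share 212 bases with genes on the other strand. Its relative Col5a3, which can replace a chain in type V collagen, was level between the cell types (total mRNA -0.15 ± 0.47, footprints -0.11 ± 0.41); neither value passed the test.

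Col17a1, the transmembrane collagen of hemidesmosomes in skin, owed its call to 2 libraries. In neuron total mRNA it had 841 reads (388 CPM) in the WT culture numbered 3 and 106 reads (239 CPM) in that of hTDP-43, and 1.42 to 13.6 CPM in the other 6 libraries. The footprint libraries of the same 2 cultures held only 4 and 1 reads. With all libraries Col17a1 was 4.23 ± 1.24 lower in MN1 cells (edgeR, adjusted p = 0.0058). Without WT replicate 3 the difference was 1.96 (adjusted p = 0.16), and without both cultures 0.86 (adjusted p = 0.18). The part of the high Lars2 and Nid1 counts of these libraries in this value was not tested.

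Of the 44 chains, 20 passed the filter on low counts in total mRNA, and 15 of these passed the test between MN1 cells and neurons, 3 higher and 12 lower in MN1 cells. Over all 12801 genes tested the share called was 81.0%, with 38.4% higher and 42.6% lower, so that a call between the cell types was the rule for any gene. The median log2 difference of the 20 chains was -2.31 against -0.09 for all genes. Libraries of the cell types did not overlap for 12 of the 20 chains, 2 of them higher in MN1 cells, against 62.8% of all genes tested. Chains read in only a single cell type pass such a filter because of that cell type, and the counts describe these 20 chains only. Besides Col11a2 and Col5a3, the chains Col15a1, Col16a1 and Col1a2 missed the threshold.

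In footprints 10 chains passed the filter and 9 passed the test, 2 higher and 7 lower in MN1 cells, where 82.6% of 10698 genes were called (39.9% higher, 42.7% lower). Libraries did not overlap for 6 of the 10 chains, against 60.1% of all genes tested. Between matched genotypes the numbers called in total mRNA were 16 of 20 for GFP against WT (66.4% of all genes), 13 for hTDP-43 (66.5%) and 12 for hTDP-43-A315T (68.3%). In footprints they were 8 of 10 (70.1%), 8 (67.1%) and 6 (72.1%). Col18a1 was higher in MN1 cells in all 6 of these comparisons, by 3.74 ± 0.43, 5.13 ± 0.45 and 5.09 ± 0.39 in total mRNA and 5.36 ± 0.34, 6.44 ± 0.39 and 7.27 ± 0.33 in footprints, in the same order of genotypes. Without the WT culture numbered 3, which leaves 1 WT library, Col18a1 was 4.83 ± 0.37 higher in GFP than in WT total mRNA in place of 3.74. Over all genotypes Col18a1 was higher in MN1 total mRNA by 4.98 ± 0.19 without WT replicate 3 and by 5.04 ± 0.15 without both cultures numbered 3 that stood apart. The shares of all genes higher in MN1 cells were 30.4%, 30.9% and 32.7% in total mRNA and 33.1%, 31.2% and 34.8% in footprints, and those lower were 36.0%, 35.6% and 35.7%, and 37.0%, 36.0% and 37.4%. Col4a2, Col6a1, Col19a1, Col25a1 and Col26a1 were lower in all 6.

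**Figure D2:**
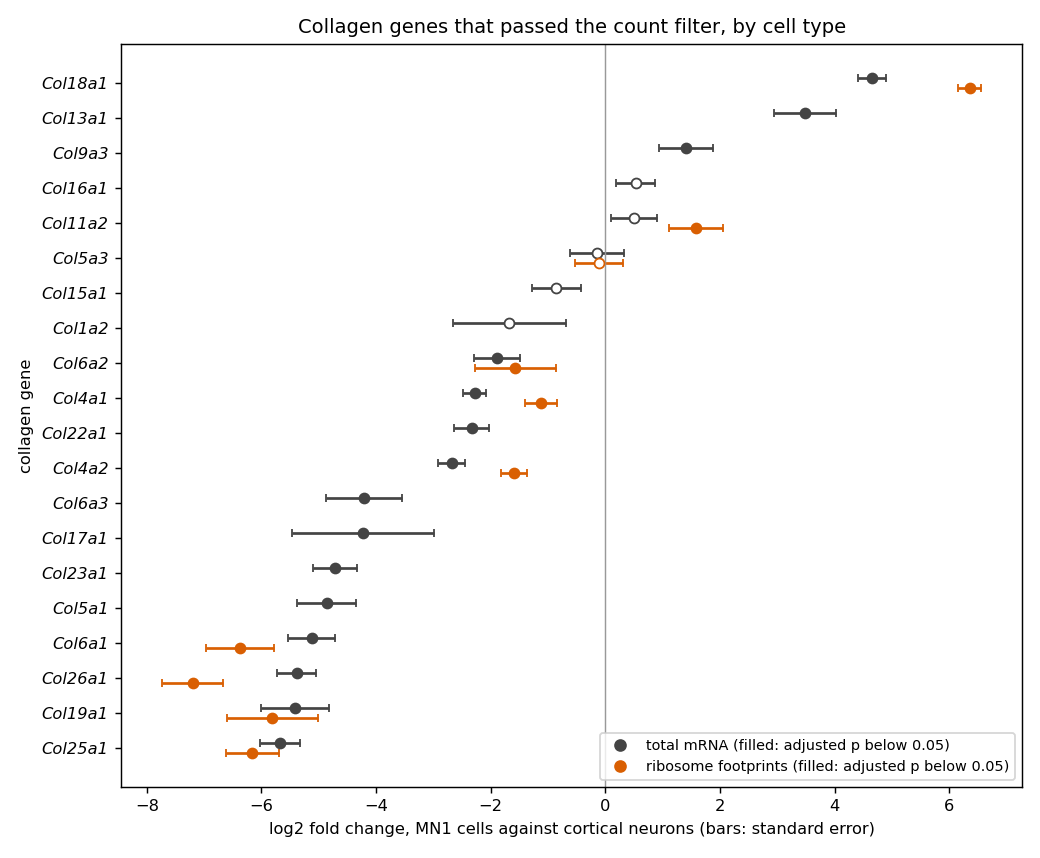
Log2 fold change of MN1 cells against cortical neurons (horizontal axis, bars: standard error from edgeR) for the collagen genes that passed the count filter (vertical axis), in total mRNA (grey, 20 genes) and footprints (orange, 10 genes), with filled points for an adjusted p below 0.05. Col18a1 lies far to the right at 4.65 and 6.36, and the neuron collagens Col6a1, Col26a1, Col19a1 and Col25a1 lie at -5.13 and below.

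Of the 24 chains that did not pass the filter in total mRNA, none was without reads in either cell type, but 8 had at most 3 reads over all MN1 libraries (Col9a1, Col4a3, Col4a6, Col4a5, Col8a2, Col28a1, Col6a6 and Col8a1). In MN1 footprints 6 chains had no read at all, namely Col5a2, Col4a3, Col4a6, Col12a1, Col14a1 and Col8a1, where 3 reads over the cell type would stand for 0.632 CPM. In neuron footprints only Col24a1 had none. Col2a1, the chain of cartilage collagen, was among the 10 leading MN1 chains per length with 3 to 12 reads per total mRNA library, and had 3 reads in all MN1 footprint libraries. Col7a1 of anchoring fibrils had 3 to 10 reads in each MN1 and 1 to 5 in each neuron total mRNA library. Col16a1, which links fibrils, had 5 to 12 and 1 to 11.

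Markers of other cells that make collagen were examined beside these levels, since fewer cells of a type and less RNA per cell cannot be told apart in such cultures. Of 6 endothelial markers, Cldn5 had no read in neuron total mRNA and Cdh5 had 2 in all, and the summed level of the list was 0 to 8.31 CPM in neurons and 7.10 to 13.9 CPM in MN1 cells. The 6 mural markers summed to 2.55 to 11.1 CPM in neurons, with Kcnj8 at 0, and the 8 fibroblast and meningeal markers to 2.12 to 9.76 CPM. Lum had 2 reads in neuron total mRNA. The same fibroblast list summed to 110 to 185 CPM in MN1 cells, through Foxd1 and Foxc1, with Lum and Aldh1a2 at 0. Astrocyte markers summed to 239 to 615 CPM in neurons and to at most 2.75 CPM in MN1 cells, and the oligodendrocyte lineage to 46.1 to 117 CPM and 6.09 to 10.1 CPM. The part of glia in the neuron collagens was not tested.

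The genes that fold, trim, bind and degrade collagen were taken from lists of genes with known roles. Over all genes tested in total mRNA, 38.4% were higher and 42.6% lower in MN1 cells, so most genes of any list were called. Of 20 tested genes for folding, modification and export, 13 were higher and 5 lower in MN1 cells in total mRNA. Crtap, part of the prolyl 3-hydroxylase complex, was 4.26 ± 0.25 higher and P4ha2, a prolyl 4-hydroxylase subunit, 3.92 ± 0.20 higher. Serpinh1, which encodes the procollagen chaperone Hsp47, went the other way. It had 1 to 5 reads per MN1 library (0.473 to 1.82 CPM) and 4.43 to 18.2 CPM in neurons, and was 3.39 ± 0.46 lower in MN1 cells (edgeR, adjusted p = 7.2e-06).

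Of 7 tested genes for processing and crosslinking, 3 were higher and 4 lower in MN1 cells. The procollagen proteinase Adamts3 was 7.54 ± 0.38 lower, the lysyl oxidase relative Loxl1 4.90 ± 1.17 lower and Pcolce, which enhances the trimming of procollagen, 5.33 ± 0.29 higher. Collagen receptors divided 5 to 1. The integrin chain Itga1 was 5.53 ± 0.53 higher and the receptor kinase Ddr2 3.95 ± 0.15 higher, whereas Adgrg1, an adhesion receptor for collagen III on neural progenitors, was 8.52 ± 0.33 lower, with 3 reads in all MN1 total mRNA libraries. Of 4 tested genes for breakdown none was higher and 3 were lower, the inhibitors Timp3 (4.99 ± 0.48) and Timp2 (4.12 ± 0.20) and the membrane proteinase Mmp14 (1.15 ± 0.32). Other matrix proteins divided 5 to 7 among 15, with fibronectin (Fn1, 5.09 ± 0.36) and the laminin chain Lama5 (4.92 ± 0.18) higher and fibrillin Fbn2 (4.73 ± 0.45) lower in MN1 cells. In footprints the lists gave 11 higher and 4 lower of 17, 2 and 1 of 3, 5 and 1 of 6, 0 and 2 of 2, and 5 and 5 of 13, in the same order. There 39.9% of all genes tested were higher and 42.7% lower.

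Genotype within a cell type was compared next, the question being whether human TDP-43 or its mutant shifts the collagen genes. No chain passed the test in any of the 12 comparisons of genotypes (edgeR), in which 3 to 19 chains were tested and 0.0% to 0.0115% of all genes were called. At an unadjusted p below 0.05 there were 0 to 3 chains per comparison, where 0.372% to 5.29% of all genes tested reached it. The most were 3 of 16 chains in hTDP-43-A315T against WT neurons (total mRNA), where 1.64% of all genes did. In MN1 hTDP-43-A315T against GFP (total mRNA) there were 2 of 7, where 5.29% did. The other comparisons had 0 or 1. DESeq2 called no chain. With the replicate number as a block, 1 chain was called, Col17a1 in hTDP-43-A315T against WT neurons (-4.12 ± 0.80, edgeR, adjusted p = 0.00025), which rests on WT replicate 3. That fit tested 16 chains and called 35 genes in all.

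The collagen share was not tested by genotype. In MN1 total mRNA it was 0.0266% ± 0.0008 (SD, n = 2) in GFP cultures, 0.0290% ± 0.0027 for hTDP-43 and 0.0318% ± 0.0012 for the mutant. The corresponding footprints were at 0.0323% ± 0.0019, 0.0306% ± 0.0061 and 0.0317% ± 0.0028. Neuron footprints were at 0.0271% ± 0.0036 in WT (n = 2), 0.0249% ± 0.0040 for hTDP-43 and 0.0228% ± 0.0014 for the mutant (n = 3 each). In neuron total mRNA the shares were 0.0416% ± 0.0183, 0.0344% ± 0.0089 and 0.0259% ± 0.0009 in the same order, or 0.0284%, 0.0282% and 0.0252% with Col17a1 set aside. In MN1 total mRNA both mutant cultures were above both GFP cultures.

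The chains with the lowest unadjusted p were Col18a1, Col6a2, Col5a1 and Col17a1. Col18a1 was 0.32 ± 0.13 higher in MN1 cells with hTDP-43-A315T than with GFP in total mRNA (edgeR, adjusted p = 0.85) and 0.09 ± 0.18 higher in footprints. Both hTDP-43-A315T libraries lay above the GFP and hTDP-43 libraries in total mRNA, but not in footprints, where GFP had 218 and 212 CPM and hTDP-43-A315T 252 and 203 CPM. In neurons, Col18a1 was 1.02 ± 0.58 lower with hTDP-43-A315T than in WT total mRNA (edgeR, adjusted p = 1.0). This value rests on WT replicate 3. WT had 5.12 and 19.4 CPM and the mutant cultures 6.16, 4.44 and 6.79 CPM, and with WT replicate 2 as the single WT library the mutant was 0.20 ± 0.55 higher. The difference between these effects, tested as an interaction of cell type and mutant, was 1.35 ± 0.57 in total mRNA and 1.90 ± 0.69 in footprints (edgeR, adjusted p = 1.0 in both). Without WT replicate 3 it was 0.18 ± 0.45 and 1.21 ± 0.84. None of the 20 and 10 chains tested passed in either interaction, nor did any other gene (0.0% of genes called).

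Col6a2 was higher in the mutant cultures than in the other MN1 cultures and lower in them than in both WT cultures among neurons, and no test of these differences passed with all libraries. In MN1 total mRNA the hTDP-43-A315T cultures held 12.7 and 13.3 CPM, above the 4.95 and 8.02 CPM with GFP and the 2.37 and 7.30 CPM with hTDP-43, and the differences were 0.89 ± 0.36 from GFP (edgeR, adjusted p = 0.85) and 1.39 ± 0.49 from hTDP-43 (edgeR, adjusted p = 1.0). The latter passed the test when hTDP-43 replicate 2 was left out (2.33, edgeR, adjusted p = 0.019), where the hTDP-43 arm is 1 library with 5 reads of Col6a2, assumed to vary like the other arm, and 334 genes were called. In neurons all 3 hTDP-43-A315T cultures lay below both WT cultures, by 1.43 ± 0.35 on the log2 scale (edgeR, adjusted p = 1.0). The interaction was 2.39 ± 0.90 (edgeR, adjusted p = 1.0). Col5a1 was 0.87 ± 0.34 lower in hTDP-43-A315T than in WT neurons (edgeR, adjusted p = 1.0).

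No type IV gene passed the test between genotypes. Col4a1 had group means of 29.6 ± 4.47 CPM in WT (SD, n = 2), 29.4 ± 4.09 CPM in hTDP-43 and 29.2 ± 2.80 CPM in hTDP-43-A315T neurons (n = 3 each) in total mRNA. Col4a2 had 59.1 ± 22.1, 60.1 ± 24.4 and 41.6 ± 5.44 CPM in the same order, where WT replicate 3 and hTDP-43 replicate 3 held the 2 highest values, 74.8 and 87.8 CPM. The other WT library had 43.5 CPM and the other hTDP-43 libraries 41.6 and 50.99 CPM, and without both cultures the mutant differed from WT by -0.06 ± 0.26 in place of -0.50 ± 0.30. Leaving out WT replicate 2, which leaves WT replicate 3 alone and assumes that it varies like the other groups, called 7 of 21 chains tested in hTDP-43-A315T against WT total mRNA, where 1573 genes were called in all: Col17a1, Col1a2, Col3a1, Col1a1, Col19a1, Col18a1 and Col6a2, all lower with the mutant.

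**Figure D3:**
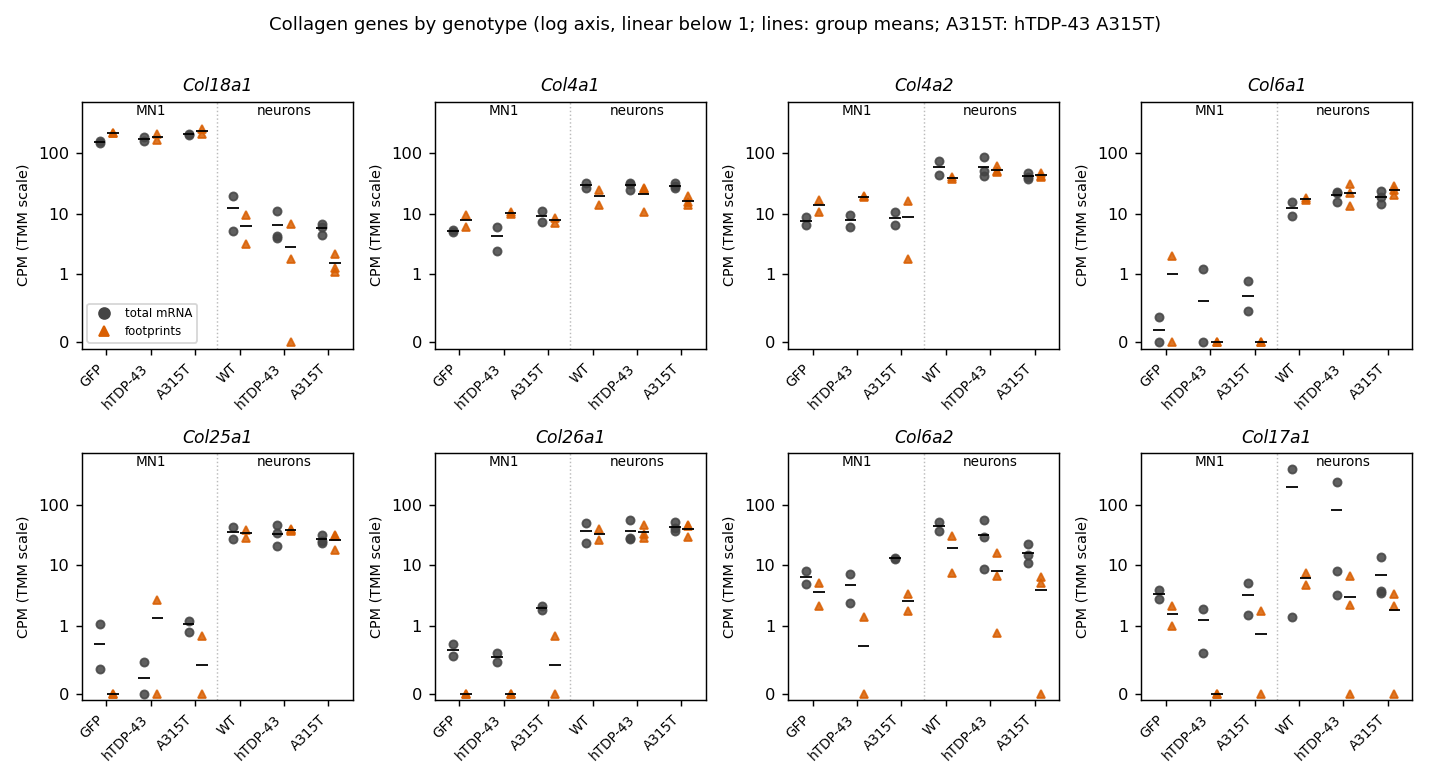
CPM on the TMM scale (vertical axis, logarithmic above 1 and linear below) of 8 collagen genes in every library by cell type and genotype (horizontal axis), with circles for total mRNA, triangles for footprints and lines for group means. Col18a1 is between 149 and 252 CPM in every MN1 library whatever the genotype, and Col17a1 reaches 388 and 239 CPM in total mRNA of a WT and an hTDP-43 neuron culture.

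The ratio of footprints to total mRNA was used as a measure of how heavily an mRNA is occupied by ribosomes. A ratio above 1 means a larger share among footprints than among mRNA, relative to the other genes. In MN1 cells 5 of 6 tested chains differed between the library types, where 57.4% of 10212 genes did. In neurons 7 of 18 did, where 54.0% of 11654 genes did. Poly(A) selection, fragment length and cycloheximide before lysis differ between the libraries or cell types, and their part in these ratios was not tested.

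Col18a1 was occupied in opposite directions. Per culture, its footprint CPM was 0.977 to 1.46 times its total mRNA CPM in the 6 MN1 cultures (median 1.18), above 1 in 5 of them. In the 7 neuron cultures that had reads in both libraries the ratio was 0.159 to 0.611 (median 0.488), below 1 in all, and hTDP-43 replicate 2 had no footprint. The cultures of the cell types did not overlap. In the fits, footprints exceeded total mRNA by 0.32 ± 0.09 (log2 ± SE) in MN1 cells (edgeR, adjusted p = 0.011) and fell short by 1.43 ± 0.47 in neurons (edgeR, adjusted p = 0.015). The neuron ratio rests on 19 footprint reads and 156 total mRNA reads in all, a pooled ratio of 0.357 with a 95% counting interval of 0.209 to 0.576, against 1.21 (1.119 to 1.297) in MN1 cells. The MN1 call was lost without GFP replicate 1 (0.30, adjusted p = 0.053), without hTDP-43-A315T replicate 1 (0.25, adjusted p = 0.097) and with no filter on low counts (0.22, adjusted p = 0.18), and the neuron call without hTDP-43 replicate 1 (1.38 below, adjusted p = 0.077).

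Tested as an interaction of library type and cell type, the ratio of Col18a1 was 1.61 ± 0.42 higher in MN1 cells on the log2 scale (edgeR, adjusted p = 0.019). It was the only chain called of 14 tested, where 8.07% of 12358 genes were called. The median of all genes in this comparison was -0.20 with TMM and 0.02 with DESeq2 size factors, so part of any value depends on the scaling, and with the latter Col18a1 was at 1.84 (adjusted p = 0.011). With the culture as a block it was at 1.52 ± 0.30 (edgeR, adjusted p = 0.0026). The call was lost when MN1 hTDP-43-A315T replicate 1 (1.53, adjusted p = 0.052), neuron hTDP-43 replicate 1 (1.64, adjusted p = 0.10) or neuron hTDP-43-A315T replicate 1 (1.62, adjusted p = 0.057) was left out.

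Col4a1 and Col4a2 leaned the same way. In MN1 cells the median ratio was 1.36 for Col4a1 and 1.79 for Col4a2, and in neurons 0.635 and 0.911. Within neurons the footprints of Col4a1 were 0.57 ± 0.18 below its mRNA (edgeR, adjusted p = 0.012), and within MN1 cells those of Col4a2 were 0.89 ± 0.32 above (edgeR, adjusted p = 0.028). The Col4a2 call was lost without either GFP culture, without either hTDP-43 culture and without hTDP-43-A315T replicate 1, where the value was 0.19 (adjusted p = 0.80). The differences between the cell types, 1.03 ± 0.33 for Col4a1 (edgeR, adjusted p = 0.054) and 0.95 ± 0.36 for Col4a2 (edgeR, adjusted p = 0.10), missed the threshold with TMM. DESeq2 called both (1.27, adjusted p = 0.039, and 1.18, adjusted p = 0.041), and DESeq2 size factors in edgeR called Col4a1 (1.26, adjusted p = 0.025). The MN1 values of Col4a1 rest on 4 to 10 footprint reads per culture.

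**Figure D4:**
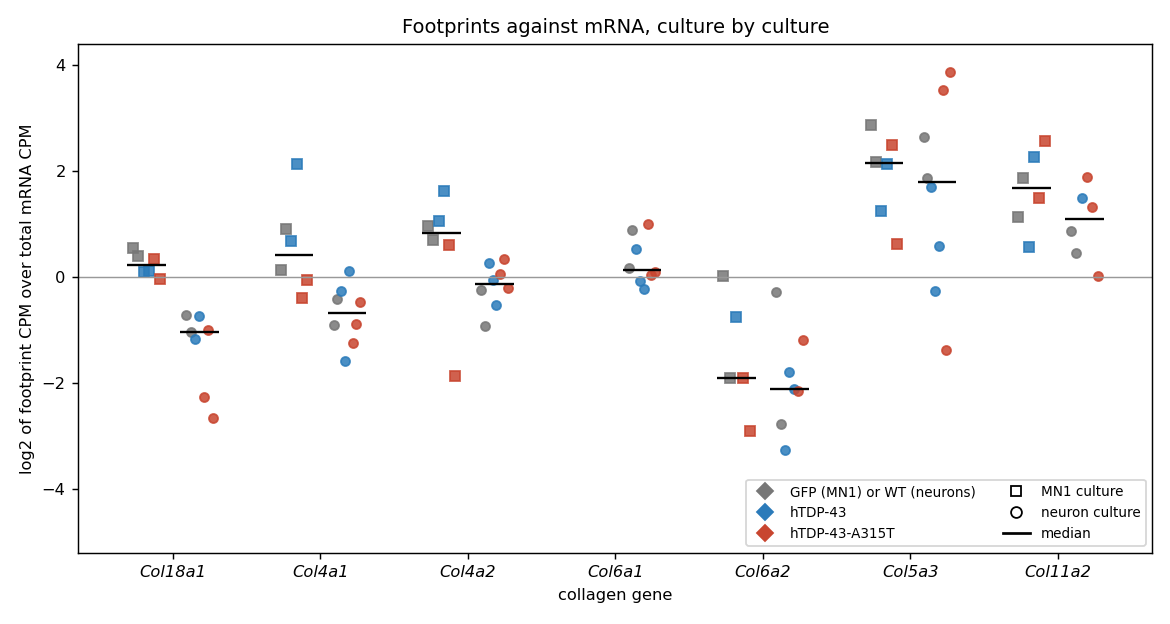
Log2 of footprint CPM over total mRNA CPM (vertical axis) for 7 collagen genes (horizontal axis) in each culture with reads in both libraries, with squares for MN1 cultures, circles for neuron cultures, colours for genotype and black lines for medians. For Col18a1 the MN1 squares (ratios 0.977 to 1.46) lie above all neuron circles (0.159 to 0.611), while both cell types are low for Col6a2 and high for Col5a3.

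Col6a1 and Col6a2, whose products share a molecule, differed in their ratios within the same neuron cultures. Col6a1 had a median ratio of 1.10, above 1 in 6 of 8 cultures, and a pooled ratio of 1.41 (95% counting interval 1.19 to 1.67). Col6a2 had a median of 0.231, below 1 in all 7 cultures with reads in both libraries, and a pooled ratio of 0.361 (0.2755 to 0.4655). These intervals cover counting error only. In the fit, Col6a1 footprints were 0.49 ± 0.20 above mRNA (edgeR, adjusted p = 0.046) and those of Col6a2 1.97 ± 0.50 below (edgeR, adjusted p = 0.0030). The call of Col6a1 was lost in every fit that left out a culture and with DESeq2 (0.42, adjusted p = 0.16). MN1 cells had the same low ratio of Col6a2 (1.69 ± 0.50 below, edgeR, adjusted p = 0.010), although without GFP replicate 2 or hTDP-43 replicate 2 it missed the threshold (adjusted p = 0.059 and 0.083).

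Col5a3 had the highest median ratio of the chains tested in MN1 cells and a high one in neurons, with footprints 2.00 ± 0.47 above mRNA in MN1 cells (edgeR, adjusted p = 0.0024) and 1.99 ± 0.43 above in neurons (edgeR, adjusted p = 0.00080), and pooled ratios of 4.14 and 5.496. These calls were lost without MN1 hTDP-43-A315T replicate 1 (1.55, adjusted p = 0.12) and without neuron hTDP-43 replicate 1 (1.71, adjusted p = 0.050). Its culture values in neurons were spread from 0.383 to 14.7 on 1 to 57 footprint reads. Col11a2 was 1.86 ± 0.50 above in MN1 cells (edgeR, adjusted p = 0.0059), where all 6 cultures had a ratio above 1 but the call was lost without hTDP-43 replicate 2 (1.49, adjusted p = 0.081), and 0.73 ± 0.43 above in neurons, which missed the threshold (edgeR, adjusted p = 0.16). Col23a1 was low in neurons, 1.10 ± 0.39 below mRNA (edgeR, adjusted p = 0.023) and below 1 in all 6 cultures with reads in both libraries, but not past the threshold without hTDP-43 replicate 2 or hTDP-43-A315T replicate 2 (adjusted p = 0.053 and 0.052). Col17a1 was 3.72 ± 1.16 below in neurons (edgeR, adjusted p = 0.012), but 1.54 below without WT replicate 3 (adjusted p = 0.29) and 0.44 below without that culture and hTDP-43 replicate 3 (adjusted p = 0.58). Col25a1 and Col26a1 had neuron ratios near 1, with medians of 1.08 and 0.927.

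No chain differed in its ratio between genotypes in any of 6 comparisons (edgeR), in which 6 to 18 chains were tested and 0.0% of genes were called. No chain reached an unadjusted p below 0.05, where 0.688% to 2.30% of all genes tested did, and DESeq2 called no chain. For Col18a1 in MN1 cells the ratio was 0.26 ± 0.20 lower with hTDP-43-A315T and 0.33 ± 0.25 lower with hTDP-43 than with GFP. For Col4a2 in neurons it was 0.67 ± 0.39 higher with hTDP-43-A315T than in WT. Per culture, the Col4a2 ratio was 0.845 in WT replicate 2 and 0.531 in WT replicate 3, whose total mRNA library stood apart. The mutant cultures had 1.04, 1.26 and 0.865.

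Col4a3bp, which matches the naming rule and encodes the ceramide transporter, was expressed in both cell types. It had 28.2 to 43.5 CPM in MN1 and 28.9 to 56.3 CPM in neuron total mRNA, ranges that overlap, with a difference of -0.25 ± 0.17 (edgeR, adjusted p = 0.20). In footprints it was 0.63 ± 0.18 lower in MN1 cells (edgeR, adjusted p = 0.0032). It did not enter any sum of collagen reads.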

How the data were processed

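Per the labels and the study's methods, the authors clipped adapters with cutadapt 1.8.1, removed reads that Bowtie2 aligned to non-coding RNA, aligned the rest to GRCm38 with TopHat2 and counted reads on exons without strand with featureCounts 1.4.4 (Ensembl 80). The deposited values are raw counts of reads per gene, 45513 genes in each library, neither normalized nor pooled. Unstranded exon counts cannot separate overlapping antisense genes, and footprints on untranslated exons are included. Libraries were grouped by their labels, and no pair of libraries was identical. Symbols, coordinates and exon lengths came from GENCODE M21.

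Members and gene lists were chosen with earlier results of these data known. Values per library are given for the 10 chains with the highest mean RPKM in each cell type and for chains called in a ratio or genotype comparison; other genes are named by the fixed lists, at most 3 per list. Counts were tested with edgeR 4.0.16 (quasi-likelihood, filterByExpr with a minimum count of 10, TMM, Benjamini-Hochberg over all genes tested, threshold 0.05) in R 4.3.3. MN1 cells were compared with neurons in a fit of all 14 libraries of a type, genotypes in fits of the 2 groups, and footprint to mRNA ratios as an interaction of library type and group. SE was computed from the test statistic and left out where p exceeded 0.9. RPKM and CPM used TMM-scaled library sizes. DESeq2 1.42.0, its size factors in edgeR, no filter, the replicate block and leaving out each culture were the alternatives. Only some of the filtered edgeR fits with TMM were tested on simulated data. DESeq2, its size factors and the fits without a filter were not. Counting intervals are exact, at 95%, and cover counting error only.

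Libraries held 166064 to 2528820 reads in footprints and 600385 to 6969578 in total mRNA, so chains under about 3 reads were not measurable. The replicate number stands for a date in the titles of each cell type (1 GFP footprint title differs in its year), and this pairs the libraries. Deviations from group means correlated between same-numbered libraries with a mean r of 0.336 (MN1 footprints) and 0.442 (MN1 total mRNA). In neurons the mean was 0.120 (footprints) and 0.170 (total mRNA). Same-numbered libraries ranged from -0.175 to 0.52 in neuron total mRNA, and differently numbered ones from -0.52 to 0.343. In neuron footprints these ranges were 0.029 to 0.248 and -0.222 to 0.116.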

Additional observations from a re-analysis of the deposited data

Results flagged for a closer look

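In each cell type and library type, the values of each leading chain and the collagen share of reads were searched for a library far from the rest by Dixon's test. Of 68 sets of values 10 held such a library. The rate of about 1 in 20 by chance does not hold for counts at or near 0. There a single library with a read is flagged whenever all others hold 0, so the number flagged was not set against chance. In MN1 footprints these were low counts where the other libraries were at or near 0: Col19a1 at 2.56 CPM and Col26a1 at 0.853 CPM in hTDP-43-A315T replicate 1, Col5a1 at 1.77 CPM and Col2a1 at 3.54 CPM in hTDP-43-A315T replicate 2, Col25a1 at 2.67 CPM in hTDP-43 replicate 2 and Col6a1 at 2.02 CPM in GFP replicate 1, each from 1 to 3 reads. In neurons they were Col2a1 at 1.89 CPM in footprints of WT replicate 3 and Col13a1 at 2.17 CPM in total mRNA of hTDP-43 replicate 2, again on 1 and 2 reads. Total mRNA of WT replicate 3 held Col18a1 at 19.4 CPM and Col19a1 at 30.9 CPM, where the next libraries were at 11.3 and 15.8 CPM. The same library holds the highest Col17a1, Col1a1, Col1a2 and Col3a1 reads. Col17a1 in neuron total mRNA was high in both WT replicate 3 and hTDP-43 replicate 3. It was not flagged, since the test looks for a single library apart from the rest.

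The ratio of footprints to total mRNA of Col18a1 differed between the cell types by 1.61 on the log2 scale in the test of the interaction (edgeR, adjusted p = 0.019).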

How the results depend on the processing

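With no filter on low counts, 25 chains were called between MN1 cells and neurons in total mRNA and 19 in footprints, 11 in footprints between the hTDP-43-A315T groups, and 8 between library types in MN1 cells, out of 12033, 10186, 8072 and 6049 genes called in all. With the filter the same comparisons called 15 of 20, 9 of 10, 6 of 10 and 5 of 6 chains tested. Without it 44 chains were tested in each comparison given here, or 42 in footprints of mutant and of hTDP-43 against WT neurons. The same setting called Col6a2 and Col17a1 (2 chains) in the total mRNA interaction, 3 chains in total mRNA and 1 in footprints of mutant against WT neurons, 1 and 1 of hTDP-43 against WT neurons, 1 in total mRNA of hTDP-43-A315T against hTDP-43 neurons, and 1 in the ratio of hTDP-43-A315T against WT neurons, where 110, 209, 78, 50, 58, 70 and 88 genes were called in all. With the replicate block, which pairs libraries by date, 1 of 16 chains tested (Col17a1) was called in mutant against WT neurons (total mRNA). There 35 genes were called in all. The number of chains called was unchanged in the other 22 of 23 comparisons. No paired analysis was possible because no date is shared for the contrast of MN1 cells with neurons itself. The ratio comparison of the cell types gave 3 of 14 chains tested with DESeq2 and 2 of 14 with its size factors. In all, 657 and 604 genes were called there. Without WT replicate 3 and hTDP-43 replicate 3, chosen after seeing the data, 1 chain, Col6a2, was called in footprints of hTDP-43 against WT neurons (-3.75, edgeR, adjusted p = 1.8e-05), where WT is 1 library, 11 chains were tested and 75 genes were called in all. The difference of Col4a2 between footprints and mRNA of neurons, which passed no test, was 0.035 in place of -0.16.

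Leaving out 1 culture at a time gave 0 to 1 chains in the ratio comparison of the cell types, 0 to 1 in total mRNA of MN1 hTDP-43-A315T against hTDP-43, 0 to 7 in mutant against WT neurons (total mRNA), and 2 to 5 and 4 to 8 between library types in MN1 cells and neurons. Between library types all cultures together gave 5 of 6 chains in MN1 cells (57.4% of all genes) and 7 of 18 in neurons (54.0%). The MN1 fits with 2 or 3 chains called tested 6 to 8 chains and called 4851 to 5383 genes. The neuron fit with 4 called tested 13 chains and called 5035 genes. As shares of protein-coding reads, collagens took 0.0351% (footprints) and 0.0282% (total mRNA) with GFP and 0.0340% in MN1 hTDP-43-A315T total mRNA. In hTDP-43-A315T neurons they took 0.025% (footprints) and 0.0272% (total mRNA). With Lars2 left out of the total, the total mRNA values were 0.0285%, 0.0341% and 0.0273%. All other counts and shares stayed within 1.5 times or 1 SD. Of single chains under leave-one-out, 481 of 514 values kept their side of the threshold and none changed sign. Depth limits the footprint ratios, since many chains had few footprint reads per library.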
